A study of Mus musculus with 24 samples.

Results

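The 10 genes described here encode proteins that the liver secretes into plasma and that carry or bind other molecules there: *Alb*, *Afp*, *Afm*, *Gc*, *Ttr*, *Trf*, *Rbp4*, *Hp*, *Hpx* and *Ahsg*. They were chosen by gene symbol, and all 10 were found among the 25361 genes of the expression table. RNA was sequenced from livers of mouse embryos at E12.5, each liver split on CD146 magnetic beads into a fraction of liver sinusoidal endothelial cells (LSECs, CD146+) and the remaining cells (non-ECs). There were 4 genotypes and 3 libraries per genotype in each fraction, 24 libraries in all. Control embryos were littermates without Cre. *Chd4-ECko* embryos (*Brg1fl/+;Chd4fl/fl;VE-cadherin-Cre+*) lack the chromatin remodeller CHD4 in endothelium and also carry 1 floxed *Brg1* allele. *Brg1-ECko* embryos (*Brg1fl/fl;Chd4fl/+;VE-cadherin-Cre+*) lack BRG1, the product of *Smarca4*, in endothelium and carry 1 floxed *Chd4* allele. *Brg1/Chd4-ECdko* embryos are homozygous for both floxed alleles with the same Cre. Mice were of mixed background, the VE-cadherin-driven Cre also acts in some blood cells, and hepatoblasts are not its target. Livers were digested with transcription inhibitors present, and all libraries carry the same batch label. Within a fraction, libraries are taken to come from separate embryos, as the methods of the study describe, so p-values measure the spread between embryos; the fractions of 1 liver share an embryo.

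At this stage the liver is the main site of blood formation, and hepatoblasts, the bipotent precursors of hepatocytes and bile duct cells, already make plasma proteins. Albumin carries fatty acids and many other ligands, alpha-fetoprotein (*Afp*) is its fetal relative, afamin (*Afm*) binds vitamin E, and *Gc* encodes the vitamin D-binding protein. All 4 belong to the albumin family. Transthyretin (*Ttr*) carries thyroid hormone and holds retinol-binding protein (*Rbp4*) in plasma, transferrin (*Trf*) carries iron, haptoglobin (*Hp*) captures free haemoglobin, hemopexin (*Hpx*) captures haem, and fetuin-A (*Ahsg*) binds calcium phosphate. In adult liver *Hp* and *Hpx* rise in the acute-phase response, whereas *Alb*, *Ttr*, *Trf*, *Rbp4* and *Ahsg* fall.

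The albumin family lies together on mouse chromosome 5. In GRCm39, *Gc* occupies chr5:89561689-89605757 on the minus strand, and *Alb* (chr5:90608647-90624696), *Afp* (chr5:90638584-90656766) and *Afm* (chr5:90666791-90701558) follow on the plus strand. Only 13887 bases separate *Alb* from *Afp* and 10024 separate *Afp* from *Afm*, whereas 1002889 lie between *Gc* and *Alb*. The other 6 members lie singly on other chromosomes, *Hpx* on chromosome 7. A set of 5 letter patterns of liver promoters were searched on both strands in the 250 bases before the RefSeq start (promoter table of GRCm38.p6), and 7 of the 10 members had an entry: *Gc*, *Alb*, *Afp*, *Afm*, *Hpx*, *Ahsg* and *Rbp4*, the last with 2 start sites and so 2 windows. The pattern GTTAAT was found in 4 of the 7, namely *Gc*, *Alb*, *Afp* and *Afm*, and in 6.43% of 32851 mouse promoters. The TATA box letters TATAAA were in 3 (*Afp*, *Afm* and *Rbp4*) against 12.4% of promoters. TGTTTAC (FOXA) was in *Rbp4* alone (3.17% of promoters), in its other window than the TATA box. Neither TTGCNCAA (C/EBP; 2.61%) nor CAAAGTCCA (HNF4; 0.384%) was in any of the 7. The stretches nearest the start that lie outside annotated exons are shown for the family that shares GTTAAT and, beside it, for *Hpx*, the member with the largest fold changes in non-ECs, whose window holds none of the 5 patterns; each is 5′ to 3′ on the gene's strand, was found once on its chromosome in GRCm39, and has matches in capitals (ATTAAC is GTTAAT on the opposite strand).
Gc, chr5:89605758-89605867, minus strand: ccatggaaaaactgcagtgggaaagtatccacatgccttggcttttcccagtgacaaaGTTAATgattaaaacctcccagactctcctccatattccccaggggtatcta
Alb, chr5:90608688-90608728, plus strand: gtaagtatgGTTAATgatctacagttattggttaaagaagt
Afp, chr5:90638463-90638572, plus strand: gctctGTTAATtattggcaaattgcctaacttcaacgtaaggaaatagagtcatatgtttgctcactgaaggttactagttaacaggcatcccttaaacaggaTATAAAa
Afm, chr5:90666681-90666790, plus strand: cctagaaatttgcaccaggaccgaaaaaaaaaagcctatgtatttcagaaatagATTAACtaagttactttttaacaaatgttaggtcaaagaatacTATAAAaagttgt
Hpx, chr7:105249345-105249454, minus strand: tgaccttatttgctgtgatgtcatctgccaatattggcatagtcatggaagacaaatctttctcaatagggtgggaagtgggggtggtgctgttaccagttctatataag
The RefSeq start of *Alb* lies 82 bases inside the gene as GENCODE places it, and its stretch is the 41 bases between an upstream exon of another transcript and that start. The GTTAAT pattern ended 27 bases before the RefSeq start in *Alb*, 47 in *Gc* and 100 in *Afp*. *Afm* had it at both 68 and 133 bases before the start, on opposite strands. A match is a description of these letters, and no factor's binding was measured.

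Expression was deposited as TPM, a level per transcript length that sums to the same total in each library, so the depth of each library is unknown (the methods of the study give a nominal one) and no counting interval is given. CD146+ libraries were enriched for endothelial genes: all 8 endothelial markers were called higher in control LSECs than in control non-ECs (median log2 difference 5.43), *Lyve1* by 7.86. They held mesenchymal genes as well, with all 6 markers called higher (median 4.67) and a sum of 770 to 1269 TPM over the LSEC libraries, where endothelial markers summed to 857 to 1790 TPM. Mitochondrial genes took 13.9 to 31.5% of TPM in LSECs and 2.33 to 7.69% in non-ECs, and globin genes at most 1.11%. *Chd4* in control LSECs was 285, 255 and 246 TPM against 223, 168 and 252 TPM in *Chd4-ECko* LSECs. *Smarca4* was 161, 144 and 134 TPM in control LSECs against 157, 111 and 127 TPM in *Brg1-ECko* LSECs. In *Brg1/Chd4-ECdko* LSECs *Chd4* was 242, 250 and 256 TPM, overlapping controls, and *Smarca4* 117 to 151 TPM. *Smarca4* was as low in *Chd4-ECko* LSECs (99.9 to 141 TPM) as in *Brg1-ECko*, and limma called neither gene in any LSEC comparison with controls. Whole-gene TPM also counts transcripts that lack only the floxed exons, so these levels do not check the genotype labels. A single library stood apart: *Brg1-ECko* LSEC replicate 1 had members at 2.75% of its TPM, where the other 11 LSEC libraries had 0.298 to 0.776%.

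The member levels followed 1 order in both fractions: *Afp*, *Alb*, *Trf*, *Ttr*, *Rbp4*, *Ahsg*, *Hpx*, *Gc*, *Afm*, *Hp*. In non-ECs *Afp* had the highest mean TPM of all genes (11656) and *Alb* the fifth highest (8183), and *Trf* ranked 32 (3061 TPM). At the other end were *Hpx* with a mean of 260 TPM, *Gc* with 75.8 TPM, *Afm* with 34.1 TPM and *Hp* with 16.3 TPM. Most neighbours in that order were separated in every library; *Afp* exceeded *Alb* by 1.29- to 1.64-fold in all 12 non-EC libraries. Only 2 pairs of neighbours did not keep apart. *Ttr* exceeded *Rbp4* in 10 of 12 libraries of each fraction, and *Afm* exceeded *Hp* in 11 of 12 non-EC and 9 of 12 LSEC libraries.

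**Figure D1:**
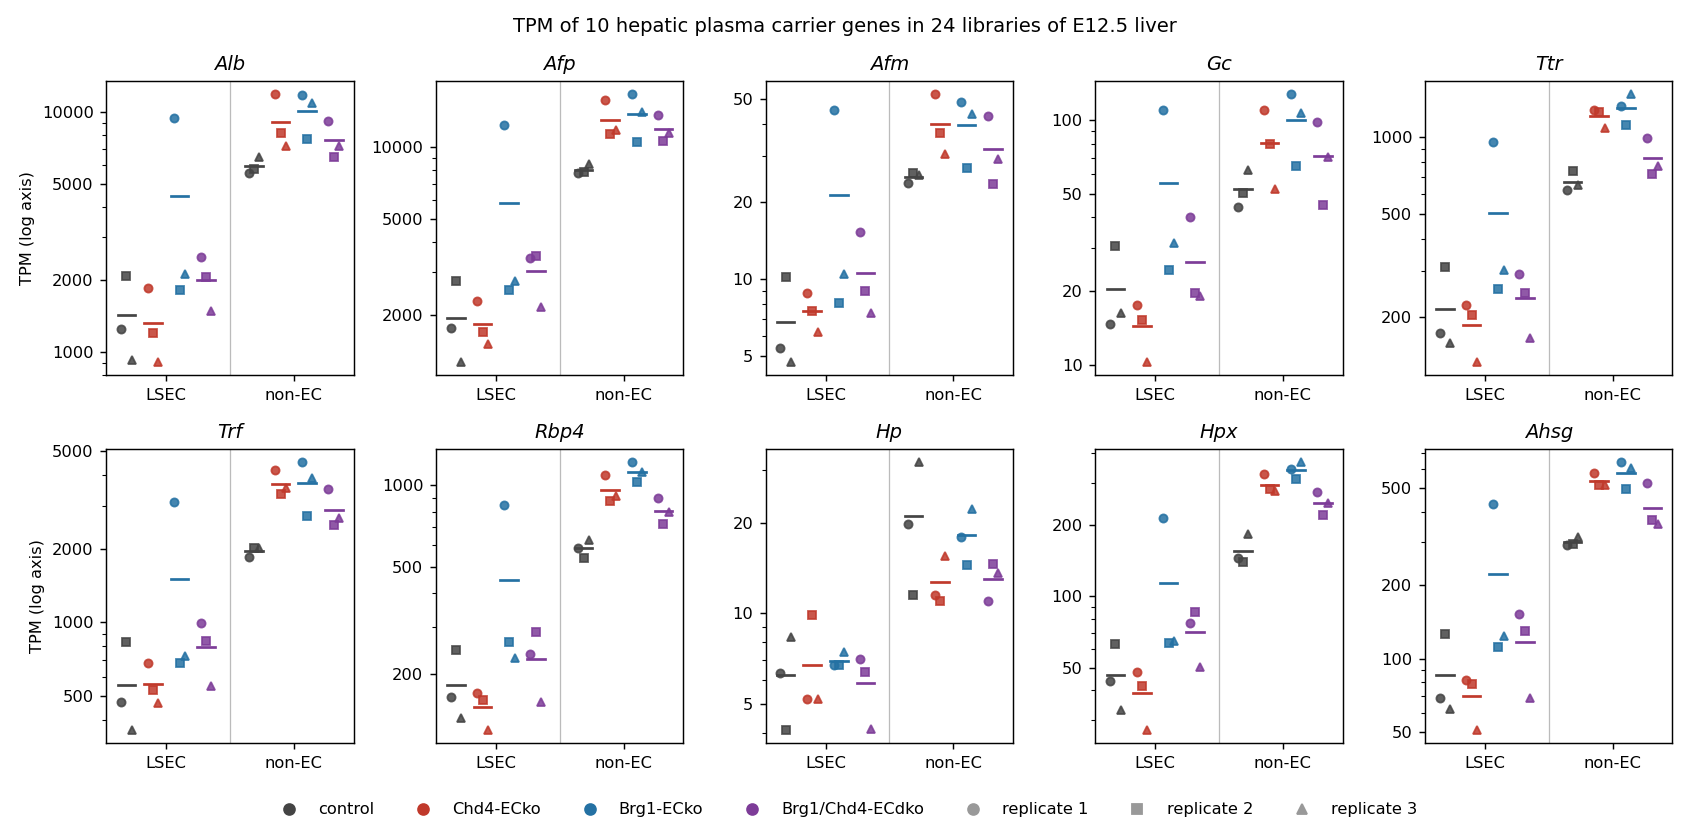
TPM (log axis, a separate range in each panel) of each member in all 24 libraries, by fraction and genotype; symbols give the replicate number and horizontal bars the mean of 3 libraries. In non-ECs the mutants sit above controls for most members, in LSECs 1 library (*Brg1-ECko* replicate 1) sits apart at up to 12314 TPM for *Afp*, and *Hp* does neither.

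Control LSECs were compared with control non-ECs to ask how far the carriers mark the non-endothelial fraction. *Alb* was at 1250, 2079 and 930 TPM in control LSECs and at 5564, 5779 and 6475 TPM in control non-ECs. *Hpx* was at 43.9, 62.6 and 33.1 TPM against 145, 140 and 182 TPM. The groups did not overlap for any member, as for the 40.2% of genes that lay fully lower in LSECs, and all 10 were called lower in LSECs by limma, against 35.8% of genes tested that were called lower (67.1% called in either direction). Log2 differences ran from -2.14 (*Alb*, SE 0.43, adjusted p = 0.000198) and -2.14 (*Afp*, SE 0.41, adjusted p = 0.000103) to -1.37 (*Gc*, SE 0.44, adjusted p = 0.0100). In fractions of whole livers, fewer cells of a type and less RNA per cell cannot be told apart.

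The most abundant carriers took similar proportions of the carrier sum in both fractions. *Afp* made up 42.5 to 48.9% of the 10-gene sum in LSECs and 43.1 to 48.9% in non-ECs, and *Alb* 28.0 to 34.4% and 28.3 to 34.3%. Rare members took a larger median share in LSECs, *Gc* 0.405% against 0.304% and *Hp* 0.106% against 0.0608%, with ranges that overlapped. The level in an LSEC library as a percentage of the non-EC library of the same genotype and number had a median between 20.3% (*Hpx*) and 36.4% (*Hp*) over the 12 pairs. Of 6 hepatoblast genes whose products are not secreted, 4 were called lower in control LSECs and 1 higher: *Hnf4a*, a hepatic transcription factor, was at 13.4 to 72.3%, and the keratins *Krt8* and *Krt18* had medians of 37.9% and 40.0%. The gene called higher was *Epcam*, an epithelial adhesion molecule, at 2.97 to 4.23 TPM in control LSECs against 0.790 to 1.75 TPM (log2 difference 1.02, adjusted p = 0.00639). *Dlk1*, a surface marker of hepatoblasts, had a median of 76.5% and did not separate the fractions (control log2 difference -0.02, adjusted p = 0.906). In *Brg1-ECko* replicate 1 the members reached 62.3 to 92.8% of the paired non-EC library, other than *Hp* at 37.2%, and *Hnf4a* reached 72.3%. Erythroid markers were likewise lower in control LSECs (8 of 9 called), whereas 7 of 8 macrophage markers were called higher. The part of carried-over cells or free RNA in the LSEC levels was not tested.

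**Figure D2:**
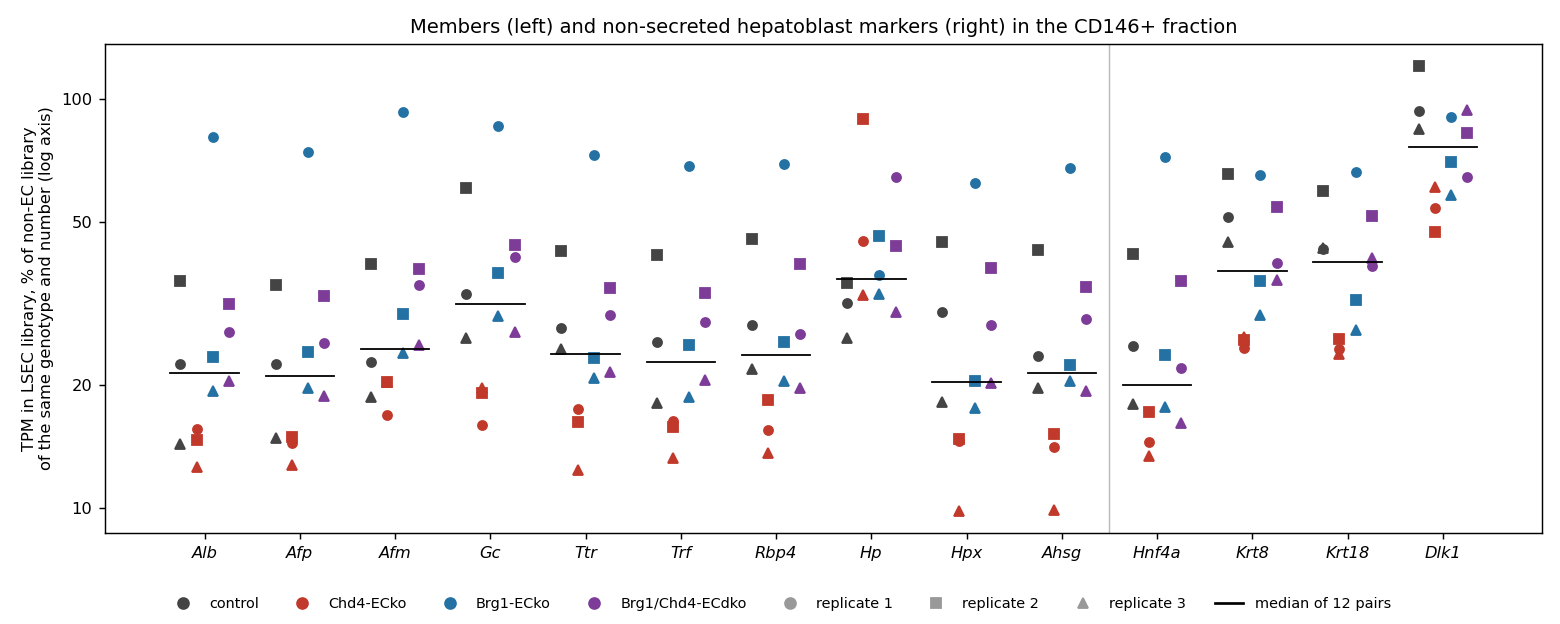
Level in each LSEC library as a percentage of the non-EC library with the same genotype and replicate number (log axis), for the 10 members and 4 hepatoblast genes; bars are medians of 12 pairs. Members sit near 20 to 36%, and *Brg1-ECko* pair 1 lies highest for every member but *Hp*.

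In LSECs no member was called in any genotype comparison. Against controls, 0.707% of the 13444 genes tested were called for *Chd4-ECko*, 0.0223% for *Brg1-ECko* and 0.87% for *Brg1/Chd4-ECdko*, and 0.0372% for *Brg1/Chd4-ECdko* against *Chd4-ECko*. At an unadjusted p under 0.05 the members numbered 0, 9 and 0 against controls, where 6.49%, 9.68% and 12.1% of genes passed, and 1 for *Brg1/Chd4-ECdko* against *Chd4-ECko* (10.4% of genes). *Alb* in LSECs was at 1846, 1204 and 908 TPM in *Chd4-ECko*, 9446, 1808 and 2104 TPM in *Brg1-ECko*, with 2480, 2050 and 1481 TPM in *Brg1/Chd4-ECdko*. These ranges overlapped the control range in each genotype. For *Chd4-ECko* LSECs the member fold changes lay between -0.44 (*Gc*) and 0.19 (*Afm*) on the log2 scale, with 95% intervals spanning -1.43 to 1.20. In *Brg1-ECko* LSECs 9 members had log2 fold changes of 1.04 to 1.30 with adjusted p of 0.426 to 0.458, and *Hp* had 0.18. Without replicate 1 the same 9 were at 0.43 to 0.54, with an adjusted p of 1.00 each. Other marker genes moved with the members in *Brg1-ECko* LSECs, although none was called. All 6 hepatoblast markers had a log2 fold change above 0 (median 0.75), and all 8 endothelial markers one below 0 (median -0.46; sum 857 to 1368 TPM against 1364 to 1790 TPM in controls). Their part in the members' values was not tested. Only *Hpx* had all *Brg1-ECko* LSEC libraries (214, 63.6 and 64.6 TPM) above all controls, a pattern that 10.9% of genes tested showed.

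In non-ECs most carriers rose in both single mutants. In *Chd4-ECko* 6 of 10 members were called higher and none lower, where 9.48% of 12223 genes tested were called and 6.17% were called higher. In *Brg1-ECko* 7 of 10 were called higher and none lower, where 11.7% of genes were called and 8.91% were called higher; without *Brg1-ECko* replicate 1 the count was 4. In *Brg1/Chd4-ECdko* 1 of 10 was called, where 0.581% of genes were called. The median log2 fold change of the members was 0.69 (*Chd4-ECko*), 0.89 (*Brg1-ECko*) and, for the double mutant, 0.41, whereas the median over all genes tested was 0.01, 0.02 and 0.01. All 3 comparisons share the same 3 control libraries. Together the members took 1.70 to 1.89% of TPM in controls, 2.54 to 3.52% in *Chd4-ECko* and 2.41 to 3.65% in *Brg1-ECko*, with *Brg1/Chd4-ECdko* at 2.17 to 2.92%. The share of mitochondrial genes in non-ECs also differed: control libraries had 7.69, 6.17 and 7.51%, those of *Chd4-ECko* 7.37, 3.43 and 2.33%, those of *Brg1-ECko* 5.24, 3.04 and 5.51%, and the double mutant 6.43 to 6.65%. *Brg1-ECko* thus lay below controls without overlap. With mitochondrial and globin genes left out of the totals, 5 members were called in *Chd4-ECko*, 6 in *Brg1-ECko* and none in the double mutant.

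**Figure D3:**
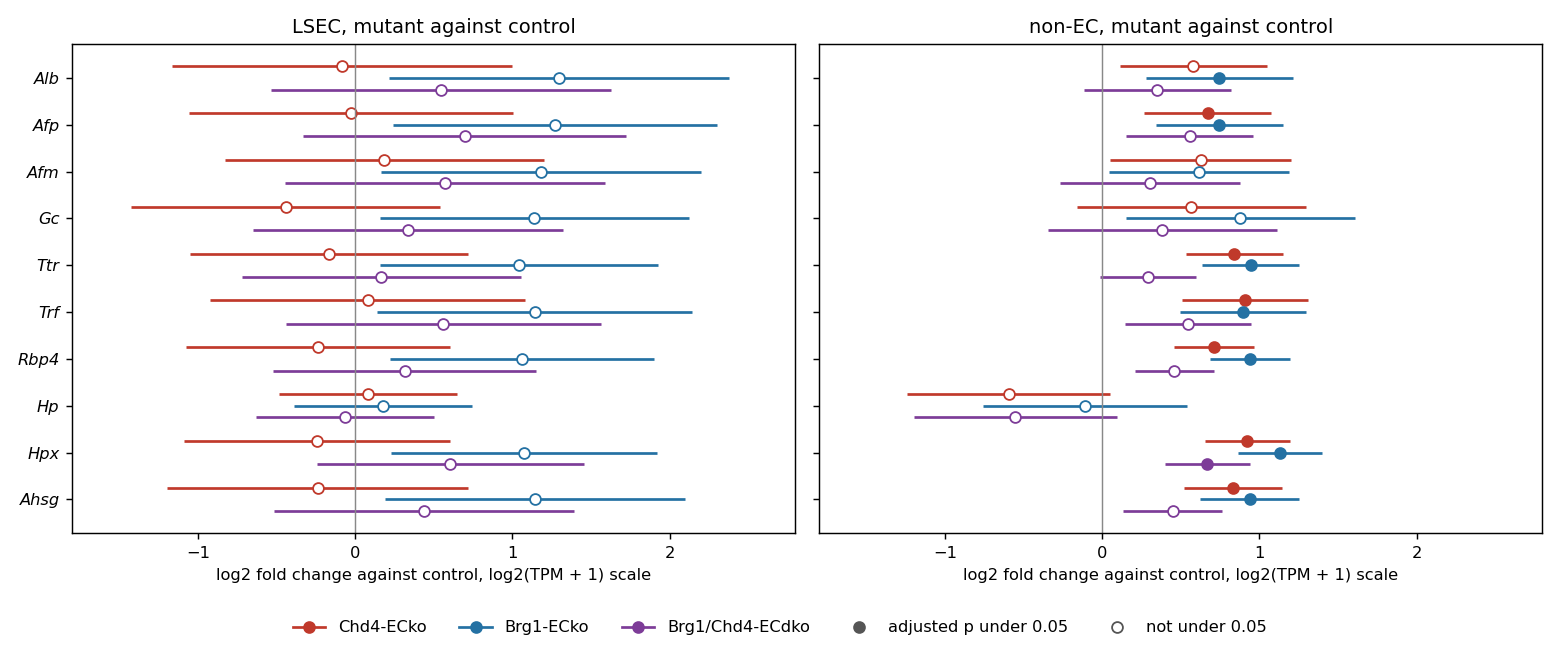
Log2 fold change of each member against controls in LSECs (left) and non-ECs (right), on the log2(TPM + 1) scale, with 95% intervals from limma; filled points have an adjusted p under 0.05. In non-ECs 6 members pass in *Chd4-ECko* and 7 in *Brg1-ECko*, 1 passes in *Brg1/Chd4-ECdko*, and none passes in LSECs.

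The haem scavenger *Hpx* had the largest change among the members. Control non-ECs held 145, 140 and 182 TPM, *Chd4-ECko* 326, 282 and 277 TPM, *Brg1-ECko* 343, 311 and 367 TPM, and *Brg1/Chd4-ECdko* 274, 221 and 247 TPM. Every mutant library was above every control library, and the *Brg1/Chd4-ECdko* libraries lay between controls and both single mutants without overlap. *Hpx* rose 1.90-fold in *Chd4-ECko* (log2 0.92, SE 0.12, adjusted p = 0.00425) and 2.19-fold in *Brg1-ECko* (log2 1.13, SE 0.12, adjusted p = 0.00128). It rose 1.59-fold in *Brg1/Chd4-ECdko* (log2 0.67, SE 0.12, adjusted p = 0.0466), a call that held in 8 of 20 alternative analyses.

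The other plasma scavenger, *Hp*, did not share that rise. Its non-EC levels were 19.9, 11.5 and 31.8 TPM in controls, 11.5, 11.0 and 15.5 TPM in *Chd4-ECko*, 18.0, 14.5 and 22.2 TPM in *Brg1-ECko*, while the *Brg1/Chd4-ECdko* libraries held 11.0, 14.5 and 13.6 TPM. The groups overlapped in all 3 comparisons. Log2 fold changes were -0.60 (95% interval -1.24 to 0.05), -0.11 (-0.76 to 0.54) and -0.55 (-1.20 to 0.09), with adjusted p of 0.175, 0.827 and 0.539. The *Brg1-ECko* value ran from -0.46 to 0.23 when 1 library was left out, above 0 without control replicate 3 or *Brg1-ECko* replicate 2. *Hp* was at 8.24 to 17.5% of the *Hpx* level in control non-ECs and at 3.52 to 6.59% in the 9 mutant libraries, ranges that did not overlap. Across the 12 non-EC libraries the correlation of *Hp* with each other member was between -0.27 and -0.09, whereas the 36 pairs of other members had 0.76 to 0.98. With the group means taken out, the correlation of *Hp* with the others in non-ECs ran from -0.29 to 0.47, the last with *Hpx*, and the other pairs had 0.49 to 0.96, so the direction for *Hp* and *Hpx* rests on the differences between genotypes. In LSECs the ranges were -0.04 to 0.10 and 0.92 to 0.99, or -0.21 to 0.07 and 0.70 to 0.97 without the library that stands apart.

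The retinol carriers rose together. *Rbp4* was at 588, 538 and 629 TPM in control non-ECs, 1092, 875 and 912 TPM in *Chd4-ECko*, 1217, 1030 and 1121 TPM in *Brg1-ECko*, with 895, 722 and 801 TPM in *Brg1/Chd4-ECdko*. All mutant libraries were above all controls. The change was 1.63-fold in *Chd4-ECko* (log2 0.71, SE 0.12, adjusted p = 0.00786) and 1.92-fold in *Brg1-ECko* (log2 0.94, SE 0.12, adjusted p = 0.00133), and in *Brg1/Chd4-ECdko* it did not pass (log2 0.46, SE 0.12, adjusted p = 0.0970). *Ttr* was at 623, 735 and 650 TPM in controls, 1274, 1248 and 1078 TPM in *Chd4-ECko*, 1311, 1107 and 1459 TPM in *Brg1-ECko*, while the *Brg1/Chd4-ECdko* libraries held 988, 717 and 771 TPM. The single mutants lay above controls without overlap, and the *Brg1/Chd4-ECdko* libraries overlapped them. *Ttr* rose 1.79-fold in *Chd4-ECko* (log2 0.84, SE 0.14, adjusted p = 0.00816) and 1.92-fold in *Brg1-ECko* (log2 0.94, SE 0.14, adjusted p = 0.00243), while *Brg1/Chd4-ECdko* gave log2 0.29 (SE 0.14, adjusted p = 0.459).

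The iron carrier *Trf* was at 1850, 2007 and 2013 TPM in control non-ECs, 4179, 3335 and 3533 TPM in *Chd4-ECko*, 4505, 2731 and 3905 TPM in *Brg1-ECko*, with 3496, 2495 and 2679 TPM in *Brg1/Chd4-ECdko*. No mutant library reached down to the control range. *Trf* rose 1.87-fold in *Chd4-ECko* (log2 0.91, SE 0.18, adjusted p = 0.0161) and 1.86-fold in *Brg1-ECko* (log2 0.89, SE 0.18, adjusted p = 0.0106), and *Brg1/Chd4-ECdko* gave log2 0.55 (adjusted p = 0.211). The mineral-binding *Ahsg* was at 292, 295 and 316 TPM in controls, 578, 518 and 514 TPM in *Chd4-ECko*, 639, 497 and 603 TPM in *Brg1-ECko*, while the *Brg1/Chd4-ECdko* libraries held 524, 371 and 355 TPM. It too was above controls in all 9 mutant libraries. *Ahsg* rose 1.78-fold in *Chd4-ECko* (log2 0.83, SE 0.14, adjusted p = 0.00860) and 1.91-fold in *Brg1-ECko* (log2 0.94, SE 0.14, adjusted p = 0.00275), and *Brg1/Chd4-ECdko* gave log2 0.45 (adjusted p = 0.186).

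Within the albumin family *Afp* and *Alb* were called and *Gc* and *Afm* were not. *Afp* was at 7808, 7857 and 8506 TPM in control non-ECs, 15779, 11340 and 11766 TPM in *Chd4-ECko*, 16602, 10541 and 13985 TPM in *Brg1-ECko*, with 13655, 10613 and 11422 TPM in *Brg1/Chd4-ECdko*. Its libraries also separated fully from controls. *Afp* rose by a log2 of 0.67 in *Chd4-ECko* (SE 0.18, adjusted p = 0.0461) and of 0.74 in *Brg1-ECko* (SE 0.18, adjusted p = 0.0245), calls that held in 8 and 14 of 20 alternatives. *Alb* was at 5564, 5779 and 6475 TPM in controls, 11825, 8192 and 7179 TPM in *Chd4-ECko*, 11705, 7731 and 10843 TPM in *Brg1-ECko*, while the *Brg1/Chd4-ECdko* libraries held 9183, 6478 and 7241 TPM. *Alb* passed in *Brg1-ECko* (log2 0.75, SE 0.21, adjusted p = 0.0435; 10 of 20 alternatives) and had log2 0.58 in *Chd4-ECko* (SE 0.21, adjusted p = 0.0885). Replicate 1 of each mutant was its highest library for *Afp* and *Alb*.

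*Gc* and *Afm* are the least abundant of the family. *Gc* was at 44.0, 50.3 and 62.5 TPM in control non-ECs, 110, 79.8 and 52.1 TPM in *Chd4-ECko*, 127, 65.0 and 106 TPM in *Brg1-ECko*, with 97.5, 44.8 and 70.8 TPM in *Brg1/Chd4-ECdko*. *Afm* was at 23.6, 25.8 and 25.3 TPM in controls, 52.2, 36.8 and 30.6 TPM in *Chd4-ECko*, 48.7, 27.0 and 43.8 TPM in *Brg1-ECko*, while the *Brg1/Chd4-ECdko* libraries held 43.2, 23.4 and 29.3 TPM. Their libraries varied more within a genotype than those of the called members. The within-group SD of log2 level in non-ECs was 0.47 for *Gc* and 0.37 for *Afm*, against 0.14 for *Rbp4*, 0.16 for *Hpx* and 0.18 for *Ttr*. *Gc* had log2 fold changes of 0.57 and 0.88 in *Chd4-ECko* and *Brg1-ECko* (adjusted p = 0.249 and 0.111), and *Afm* had 0.62 in both (adjusted p = 0.120 and 0.151).

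Full separation of the 3 mutant from the 3 control libraries counted more members than the test did. It was seen upward for 8 members in *Chd4-ECko* (all but *Gc* and *Hp*), where 15.8% of genes showed it, for 9 in *Brg1-ECko* (all but *Hp*; 21.9% of genes) and for 6 in *Brg1/Chd4-ECdko* (*Alb*, *Afp*, *Trf*, *Rbp4*, *Hpx* and *Ahsg*; 16% of genes). No member separated downward from controls. With 3 libraries against 3, a two-sided exact permutation test of a single gene cannot give a p under 0.1.

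*Brg1/Chd4-ECdko* non-ECs were also compared directly with *Chd4-ECko* non-ECs, the comparison that asks what additional loss of BRG1 does. No member was called, and limma called none of the 12223 genes (background 0%), although 21.8% of genes had an unadjusted p under 0.05, among them 2 members. Log2 differences ran from -0.55 (*Ttr*; 95% interval -0.86 to -0.24, adjusted p = 0.217) to 0.04 (*Hp*; -0.60 to 0.69). *Ttr* and *Hpx* were lower in every *Brg1/Chd4-ECdko* library than in every *Chd4-ECko* library, as were 7.12% of genes. The *Afp* to *Alb* ratio was 1.49 to 1.64 in *Brg1/Chd4-ECdko* non-ECs, above the 1.31 to 1.40 of controls and the 1.29 to 1.42 of *Brg1-ECko* and overlapping the 1.33 to 1.64 of *Chd4-ECko*.

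Whether a genotype changed the carriers differently in the fractions was asked with an interaction term. No member passed for *Chd4-ECko* (1.02% of 13775 genes called), *Brg1-ECko* (1.04%) or *Brg1/Chd4-ECdko* (0.0581%), and 1 member had an unadjusted p under 0.05. That was *Hpx* in *Chd4-ECko*, with an LSEC minus non-EC difference of -1.17 (SE 0.47, adjusted p = 0.198). Without the *Brg1-ECko* LSEC library that stands apart, *Hpx* passed with the same difference (SE 0.31, adjusted p = 0.0458) and was the one member to do so, where 2.67% of genes were called. With all libraries, the call in non-ECs and its absence in LSECs are not shown to differ for any member.

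Most of the hepatoblast genes examined moved with the carriers in non-ECs. The summed level of *Hnf4a*, *Krt8*, *Krt18* and the adhesion molecule *Cdh1* was 304 to 356 TPM in controls, 531 to 652 TPM in *Chd4-ECko* and 564 to 822 TPM in *Brg1-ECko*, with *Brg1/Chd4-ECdko* at 419 to 591 TPM. Of 6 hepatoblast markers that are not secreted, 4 were called higher in *Chd4-ECko* (*Hnf4a*, *Krt8*, *Krt18* and *Dlk1*) and the same 4 in *Brg1-ECko*, whereas *Brg1/Chd4-ECdko* had 0 (2 without *Chd4-ECko* replicate 1 or *Brg1-ECko* replicate 2). *Krt8* rose by a log2 of 0.89 and 1.14 in the single mutants (adjusted p = 0.0115 and 0.00218). *Cdh1* had 0.78 in both without passing (adjusted p = 0.0803 and 0.0896). *Epcam* did not rise, with -0.15 and -0.02. Per unit of summed *Hnf4a*, *Krt8*, *Krt18* and *Cdh1*, the carriers came to 52.0 to 57.5 in controls, 43.1 to 54.0 in *Chd4-ECko*, 42.6 to 47.5 in *Brg1-ECko* and, for the double mutant, 49.4 to 51.9. On that scale *Brg1-ECko* and *Brg1/Chd4-ECdko* lay wholly below controls and *Chd4-ECko* overlapped them. For the double mutant this depended on leaving out *Dlk1* and *Epcam*. With all 6 markers summed, control replicate 1 had 16958 TPM of carriers to 643 TPM of markers. *Brg1/Chd4-ECdko* replicate 1 had 29168 TPM to 1104 TPM, so the ranges overlapped. Erythroid markers summed to 2616 to 10785 TPM in control, 3148 to 12072 TPM in *Chd4-ECko* and 1760 to 4209 TPM in *Brg1-ECko* non-ECs. Macrophage markers summed to 90.6 to 200 TPM in controls, 164 to 281 TPM in *Chd4-ECko* and 188 to 263 TPM in *Brg1-ECko*. All 8 had a log2 fold change above 0 in both single mutants (medians 0.53 and 0.58), and none was called in either. Mesenchymal markers summed to 17.8 to 40.7 TPM in controls, 35.1 to 73.3 TPM in *Chd4-ECko* and 34.0 to 50.1 TPM in *Brg1-ECko*, and all 6 were above 0 in both (medians 0.51 and 0.34), with 1 called (*Dcn*, a matrix proteoglycan, in *Chd4-ECko*, log2 0.64, adjusted p = 0.0374). The part of a changed cell mixture in the carriers' rise was not tested.

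**Figure D4:**
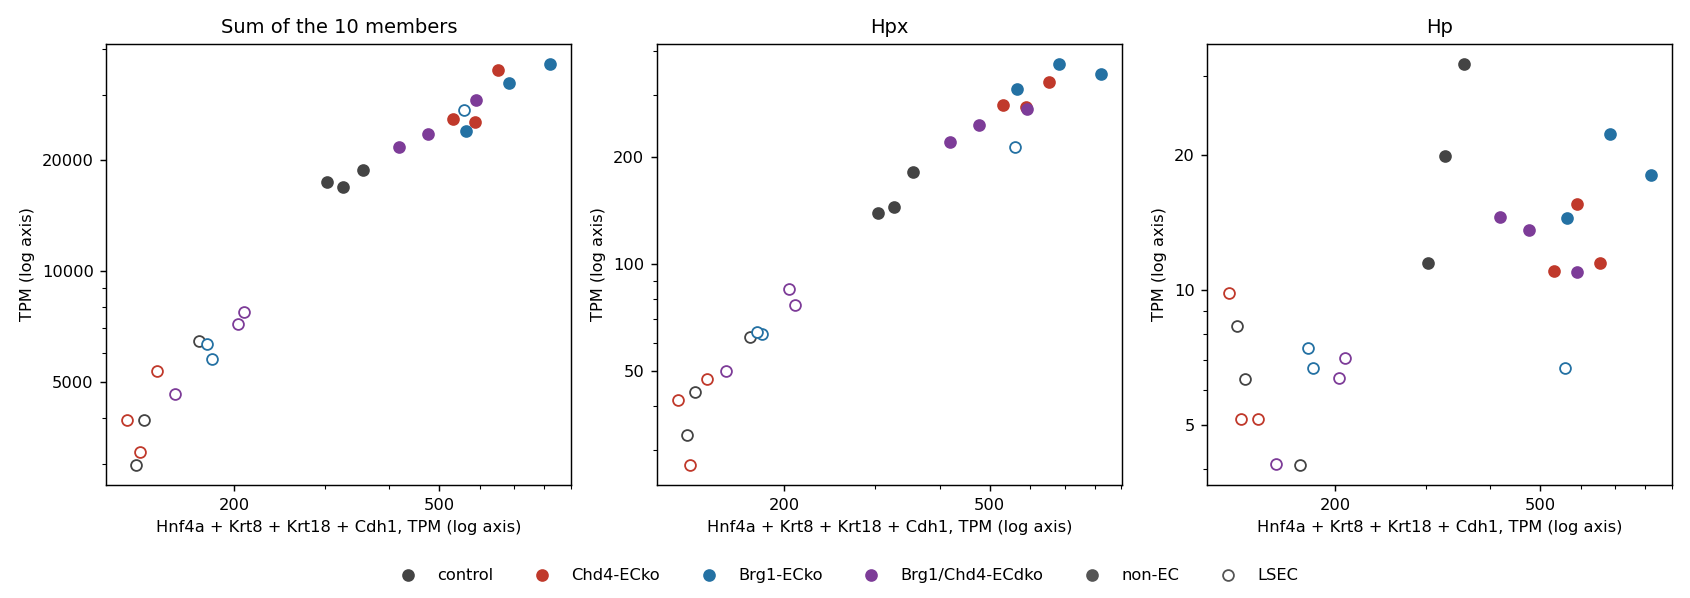
Sum of the 10 members, *Hpx* and *Hp* (TPM, log axes) in each library against the summed TPM of 4 hepatoblast genes that are not secreted; filled points are non-ECs and open points LSECs. The member sum and *Hpx* rise along with the hepatoblast genes from 124 to 822 TPM, whereas *Hp*, at 4.08 to 9.84 TPM in LSECs and 11.0 to 31.8 TPM in non-ECs, shows no such order within either fraction.

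Other secreted liver proteins also rose in non-ECs. Of 32 further plasma protein genes, 30 were tested, and *Chd4-ECko* had 21 called higher, *Brg1-ECko* 23 and *Brg1/Chd4-ECdko* 4, with none lower. The 3 counts ranged over 13 to 23, 17 to 24 and 0 to 14 when 1 library was left out. The lowest *Chd4-ECko* count came without control replicate 1, and the highest *Brg1/Chd4-ECdko* count without *Brg1-ECko* replicate 2. *Itih4*, an inter-alpha-trypsin inhibitor chain, rose by a log2 of 1.44, 1.64 and 1.17 (adjusted p = 0.00330, 0.00100 and 0.0283). *Igfbp1*, a binding protein of insulin-like growth factors, rose by 1.08, 0.85 and 1.36, and complement *C3* by 0.94 and 1.15 in the single mutants. Of 13 positive acute-phase genes tested of 18, a list that shares 6 genes with the last one, 4, 8 and 1 were called higher. Leaving out 1 library gave 1 to 6 in *Chd4-ECko*, the lowest without control replicate 2. It gave 5 to 9 in *Brg1-ECko*, the lowest without its replicate 1, and 0 to 4 in *Brg1/Chd4-ECdko*, the highest without *Brg1-ECko* replicate 2.

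Some transcription factors of hepatic genes rose as well. Of 18 tested of 20, 6 were called higher in *Chd4-ECko*, 7 in *Brg1-ECko* (4 without its replicate 1) and 1 in *Brg1/Chd4-ECdko*, with none lower. Leaving out 1 library gave 4 to 7, 4 to 9 and 0 to 3, with 3 reached without *Chd4-ECko* replicate 1. *Foxa2*, which encodes a FOXA factor, rose by a log2 of 0.87, 0.92 and 0.66 (adjusted p = 0.00600, 0.00188 and 0.0466), and *Cebpa* by 0.97 in *Brg1-ECko* (adjusted p = 0.00229). In LSECs *Cebpb* was called higher in *Chd4-ECko* (log2 0.96, adjusted p = 0.00337) and in *Brg1/Chd4-ECdko* (log2 0.81, adjusted p = 0.0105), and had log2 0.58 in *Brg1-ECko* (adjusted p = 0.203). Macrophage markers in those LSECs were above 0 for 8 of 8 in *Chd4-ECko* (median 0.99) and 7 of 8 in *Brg1/Chd4-ECdko* (median 0.65), with none called. Hepatoblast markers had medians of -0.02 and 0.45, also with none called. The part of either cell type in the *Cebpb* level was not tested.

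Receptors of the carriers did not all move one way. Of 7 tested of 11 in non-ECs, *Chd4-ECko* had 3 called higher and 1 lower, *Brg1-ECko* 4 higher and 1 lower, and *Brg1/Chd4-ECdko* none. Leaving out 1 library gave 1 to 4 called in *Chd4-ECko* (1 without control replicate 2 or 3, or its own replicate 2 or 3), 2 to 5 in *Brg1-ECko* (2 without its replicate 1) and 0 to 1 in *Brg1/Chd4-ECdko* (1 without *Chd4-ECko* replicate 1). *Asgr1*, a hepatic receptor for desialylated glycoproteins, rose by a log2 of 0.94 (adjusted p = 0.0473) and 1.23 (adjusted p = 0.0124). *Tfr2*, which encodes a transferrin receptor, rose by 0.64 and 0.62, and *Fcgrt*, the receptor that recycles albumin, by 0.79 and 1.00. The gene called lower was *Tfrc*, the transferrin receptor that red cell precursors use to take up iron. *Tfrc* was at 491, 527 and 442 TPM in control non-ECs, 374, 168 and 114 TPM in *Chd4-ECko*, 221, 186 and 250 TPM in *Brg1-ECko*, with 433, 397 and 407 TPM in *Brg1/Chd4-ECdko*. Its ligand's gene *Trf* thus stood higher, and *Tfrc* lower, in all 6 single-mutant libraries than in controls. *Tfrc* fell by 1.33 on the log2 scale in *Chd4-ECko* (SE 0.32, adjusted p = 0.0306) and by 1.16 in *Brg1-ECko* (SE 0.32, adjusted p = 0.0382). Without 1 library the adjusted p lay between 0.000599 and 0.0923 and between 0.00120 and 0.113, and the call was lost in both without any 1 of the control libraries.

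The genes whose level tracked the members most closely were then sought. Over the 12 LSEC libraries the 10 highest Pearson correlations with the members' mean z-score, among 10425 genes with a mean of at least 5 TPM, were those of *Cpb2*, *Kng1*, *Fgb*, *Apom*, *Aldh1b1*, *Plg*, *F2*, *Hgfac*, *H2-Q10* and *Serpinf2* (0.98 to 0.99). Without the library that stands apart, an alternative chosen after seeing the data, their correlations were 0.93 to 0.96 and 7 of the 10 stayed among the 10 highest. Over the 12 non-EC libraries they were *Itih1*, *Plg*, *Kif12*, *Lipc*, *Lasp1*, *Kng1*, *Ambp*, *Krt8*, *Proz* and *Ftcd* (0.96 to 0.99, of 9440 genes). *Plg*, which encodes plasminogen, and *Kng1*, kininogen, were in both lists. *Plg* spanned 57.5 to 553 TPM in LSECs and 324 to 755 TPM in non-ECs.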

How the data were processed

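From paired reads of poly(A)-selected RNA the authors removed repeated guanines; CLC Genomics Workbench was the aligner and GRCm39 the genome. The deposited values are TPM for every gene and library, not counts; how reads shared by similar genes were assigned and which gene annotation was used are not given in the sources used here. TPM is a share of each library, so a rise in other RNAs lowers it. The authors' columns of group means, fold changes and p-values, where present, were not used; 0 per-library columns were left unmapped.

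TPM of the 25361 genes were taken as log2(TPM + 1), and fold changes on that scale understate changes of low genes. A gene entered a fit if 3 or more of its libraries reached 1 TPM (all 10 members did). limma 3.58.1 (R 4.3.3) with a mean-variance trend was fitted to the 4 genotypes of a fraction, or to all 8 groups for comparisons of fractions and interactions, with Benjamini-Hochberg adjustment over all genes tested; called means an adjusted p under 0.05. The fit was tested on simulated data. Members and gene lists were chosen with earlier results of these data known. In each other list, the 2 genes with the largest called change were named by rule, except where a gene is not reported here; *Tfr2*, *Fcgrt*, *Epcam*, *Dlk1*, *Hnf4a*, *Krt18* and *Cdh1* were named after their values were seen or as part of a sum. Positions are from the GENCODE annotation of GRCm39 and promoters from RefSeq. LSEC and non-EC libraries with the same genotype and number deviated together from their group means (correlation 0.12 to 0.41, mean 0.27, in all 12 pairs), so these numbers were read as pairing the fractions; blocking on the pairs changed no member's call.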

Additional observations from a re-analysis of the deposited data

Results flagged for a closer look

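The effect of *Chd4-ECko* on *Tfrc*, the transferrin receptor of red cell precursors, differed between the fractions by a test of the difference itself. The LSEC minus non-EC difference of the log2 fold changes was 1.96 (limma, adjusted p = 0.0317). *Tfrc* fell by 1.33 in *Chd4-ECko* non-ECs. In LSECs it was at 111, 76.5 and 119 TPM against 66.3, 77.1 and 51.4 TPM in controls. These groups overlapped, and limma did not call the LSEC change (log2 0.64, adjusted p = 0.526). Leaving out 1 library gave differences of 1.59 to 2.44 with adjusted p of 0.000587 to 0.0883, and blocking on the pairs of fractions gave an adjusted p of 0.0131. For *Brg1-ECko* the same difference was 1.64 (adjusted p = 0.0648) and for the double mutant it was 0.71 (adjusted p = 0.724); whether the genotypes differ in it was not tested. Erythroid marker genes summed to 3148 to 12072 TPM in *Chd4-ECko* non-ECs and 2616 to 10785 TPM in control non-ECs. In the *Chd4-ECko* difference between the fractions all 9 were above 0 (median 0.32), with none called. Within LSECs 8 of 9 were above 0 in *Chd4-ECko* against controls (median 0.61), again with none called. Their part in the *Tfrc* difference was not tested.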

How the results depend on the processing

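Levels are shares of a library whose own depth is unknown, and 3 libraries per group leave intervals about 0.5 to 1.5 log2 units wide in non-ECs. All 10 members stayed lower in control LSECs than in control non-ECs under every alternative. The fold threshold of the study, a log2 fold change over 1, left 0 members called in *Chd4-ECko*, 1 in *Brg1-ECko* (*Hpx*) and 0 in *Brg1/Chd4-ECdko* non-ECs. The 1 call of *Brg1/Chd4-ECdko* also became 0 with no filter on low values, without mitochondrial and globin genes, with no trend, and with the 2 compared groups alone. With 1 library left out, the members called ranged over 4 to 6 in *Chd4-ECko*, 4 to 7 in *Brg1-ECko* (4 without its replicate 1) and 0 to 2 in *Brg1/Chd4-ECdko* non-ECs. They ranged over 0 to 1 for *Brg1/Chd4-ECdko* against *Chd4-ECko* (1 without *Chd4-ECko* replicate 1) and 0 to 1 for the *Chd4-ECko* interaction (1, *Hpx*, without *Brg1-ECko* LSEC replicate 1). *Hpx*, *Ttr* and *Ahsg* kept their calls in both single mutants in 20 of 20 alternatives other than that fold threshold, *Trf* in 19 each, and *Rbp4* in 19 and 20. *Hp* in *Brg1-ECko* non-ECs ranged from -0.46 (without control replicate 2) to 0.23 and turned positive without control replicate 3 (0.23) and without *Brg1-ECko* replicate 2 (0.04). The causes were not tested.

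Between genotypes the correlation of same-numbered deviations was over 0.1 in 13 of 18 LSEC pairs (mean 0.171, against -0.0852 for different numbers) and 10 of 18 non-EC pairs (mean 0.127 against -0.0667). It was over 0.1 in all 3 pairs for *Chd4-ECko* LSECs with control LSECs (0.112 to 0.390) and with *Brg1/Chd4-ECdko* LSECs (0.124 to 0.231), so the numbers were read as pairing there, and in the other 6 comparisons at least 1 pair was lower. With the number as a replicate block, *Brg1/Chd4-ECdko* non-ECs had 2 members called (*Rbp4* added, adjusted p = 0.0244), and the counts of the other comparisons, 6 and 7 for the single mutants, 10 between fractions and 0 elsewhere, were as without it.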
